A study of Homo sapiens with 4 samples.

Results

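The interferon pathway was described here through 49 genes of NCIH838, a line derived from human non-small cell lung carcinoma, in RNA-seq with and without loss of MIB1. The genes were chosen by name: type I and type II interferon receptors, the JAK, STAT and IRF factors that carry the signal, and classical interferon-stimulated genes, without guanylate-binding protein and HLA genes. All 49 were found among the 58302 genes of the deposited tables, and 36 reached the mean of 10 reads over the 4 libraries that the rule required. The other 13 fell short of it and are accounted for below.

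The study asked how the E3 ubiquitin ligase Mind Bomb 1, the product of MIB1, relates to TGF-β family signaling. Its MIB1-iKO cells carry an integrated construct with a guide RNA against MIB1, a puromycin resistance gene and Cas9 under the control of doxycycline (dox). RNA was taken at day 3 from 2 samples labelled MIB1 KO no dox and 2 labelled MIB1 KO dox, the latter with dox at 0.5 μg/mL. Both groups carry the construct, and no group received dox without a MIB1 guide, so an effect of dox or of Cas9 cutting and an effect of MIB1 loss cannot be told apart here. The MIB1-iKO lines came from single cells by dilution cloning, and the labels do not name the clone or which of the guides these samples carry. The study calls its samples biological replicates, whereas the labels do not say whether they came from separate cultures, so p-values measure only the spread between these samples. The epithelial identity of this lung line was checked on 6 markers, of which EPCAM, KRT7, KRT8, KRT18 and CDH1 passed a mean of 10 reads and KRT19 was listed at 0.

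Interferons are secreted proteins that warn cells of viruses. Type I interferons bind the IFNAR1 and IFNAR2 chains and interferon gamma binds IFNGR1 and IFNGR2. The receptors activate the kinases JAK1, JAK2 and TYK2, which phosphorylate STAT proteins. STAT2 is part, with IRF9, of the complex ISGF3, which binds the interferon-stimulated response element (ISRE) in the promoters of target genes, while STAT pairs bind the gamma-activated site (GAS). The induced proteins block viral entry, translation and replication, and many of them sense foreign RNA and so feed back on the same pathway. Tumour cell lines differ widely in how much of this program they express without added interferon.

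The ISRE core was searched in the RefSeq promoter windows of GRCh38.p14, which run from 250 bases before to 50 bases after a gene's start, as the letters GAAA, any 2 bases and GAAA again, on both strands. The sequences below show where it lies, in capitals, upstream of 5 of the 6 genes with the smallest p among those with more RNA under dox, and, added after their values were seen, of 2 genes that were nearly silent in these cells. Each is printed 5′ to 3′ on the gene's own strand with 20 bases on either side of the outermost matches. The IFI6 stretch is chr1:27672256-27672368 on the minus strand, and 29 bases of its window occur 2 times. The MX1 stretch is chr21:41431834-41431883 on the plus strand, in the third of the RefSeq windows of that gene. The ISG20 stretch is chr15:88638927-88638976 and the IFIT1 stretch is chr10:89392487-89392549, both on the plus strand. The DDX60 stretch is chr4:168318776-168318860 on the minus strand. Of the nearly silent genes, IFI44L is shown from chr1:78620264-78620404 on the plus strand, where 85 bases of its window occur 2 times, and SAMD9 from chr7:93118086-93118135 on the minus strand.
IFI6: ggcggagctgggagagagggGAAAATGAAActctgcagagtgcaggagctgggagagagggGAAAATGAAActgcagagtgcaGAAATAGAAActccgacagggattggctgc
MX1: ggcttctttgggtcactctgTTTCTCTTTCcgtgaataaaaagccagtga
ISG20: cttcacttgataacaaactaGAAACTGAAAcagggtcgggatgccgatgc
IFIT1: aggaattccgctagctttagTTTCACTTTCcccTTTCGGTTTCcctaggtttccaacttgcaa
DDX60: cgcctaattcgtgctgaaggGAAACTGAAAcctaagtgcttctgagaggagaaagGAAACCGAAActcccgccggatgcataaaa
IFI44L: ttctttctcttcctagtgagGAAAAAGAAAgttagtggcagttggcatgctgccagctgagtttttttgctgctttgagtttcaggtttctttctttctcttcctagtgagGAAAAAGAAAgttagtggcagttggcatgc
SAMD9: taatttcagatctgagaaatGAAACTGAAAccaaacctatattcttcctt

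The libraries held 15943025 to 24398411 counted reads, and both dox libraries were below both no dox libraries, so depth and group cannot be told apart. MIB1, the targeted gene, had 598 and 588 reads in no dox replicates 1 and 2 and 90 and 59 in dox replicates 1 and 2. Its log2 fold change was -2.58 ± 0.23 (SE, adjusted p = 0.000375, limma), and it fell from 2.73 ± 0.104 to 0.478 ± 0.196 RPKM (SD, n = 2 each). RPKM is reads scaled for gene length and depth, here with a further scaling per sample by the authors. Leukocyte markers could matter for interferon genes: of 6, PTPRC and CD68 had 0 reads in every library, CD14 averaged 10 reads or more, and the summed level was 4.66 to 5.09 RPKM without dox and 5.16 to 5.18 RPKM with dox. The 3 endothelial markers stayed under a mean of 10 reads. The summed level of the epithelial markers was 116 and 125 RPKM without dox and 103 and 107 RPKM with dox. Of these markers KRT8 and KRT18 gave log2 fold changes of -0.34 and -0.41, while EPCAM, KRT7 and CDH1 gave 0.13, 0.13 and 0.25. The part of these in the results below was not tested.

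In the design the study states, no interferon pathway gene of the list passed the test between dox and no dox. The induced genes IFI6, MX1, ISG20, IFIT1, DDX60, SP100 and IFIT2 stood higher in the dox libraries by 0.28 to 0.96 on the log2 scale, at an unadjusted p under 0.05 only, and none of the genes was lower at that level. The receptors, kinases, STATs and IRFs all lay between -0.37 and 0.33. The call required a change of at least 2-fold and an adjusted p no higher than 0.05 in limma, with p-values adjusted over all 16181 genes tested: 0 of 36 members were called, where 0.0371% of all genes were. At an adjusted p of at most 0.05 with no fold threshold the count was also 0, beside 0.068% of all genes, and the lowest adjusted p among the members was 0.251, that of IFI6. edgeR and DESeq2 also called 0 members, beside 6 and 5 of all 16181 genes. At such shares a count of 0 among 36 members says little. With the replicate number as a term, the count at an adjusted p of at most 0.05 in limma was not 0, as given in the closing section. In bulk RNA, fewer cells that express a gene and less RNA per cell cannot be told apart.

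Below the threshold of the test, more members leaned up than down. The log2 fold change was above 0 for 27 of the 36 members and below 0 for 9, beside 49.9% of all genes above 0. The median over the 36 was 0.08, against a median near 0 (-0.00042) over all genes. An unadjusted p under 0.05 in limma was reached by 7 members with higher values under dox (19.4%), beside 4.68% of all genes, and by 0 with lower values, beside 4.59%. Both dox libraries lay above both no dox libraries in log2 CPM (a log scale of reads relative to library size, after quantile normalization) for 14 members (38.9%, where 19.5% of all genes did so), and both lay below for 3 members (8.33%, where 19.1% of all genes did so). A log2 fold change of at least 0.25 was seen in 11 members, beside 16.3% of all genes, and one of at most -0.25 in 3, beside 16.1%, which leaves 22 members between. These counts are over the members that passed the filter and were read with earlier results of these data known, so they describe the list and carry no test of it.

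The lean was shared by both libraries of a group and small in each. Relative to each gene's own mean over the 4 libraries, the median member stood at -0.0637 and -0.0439 log2 units in no dox replicates 1 and 2 and at 0.0677 and 0.0597 in dox replicates 1 and 2. Without the 7 genes just named, the medians were -0.0375 and -0.0315 without dox and 0.0121 and 0.0372 with dox. The values of single members depended on which libraries were used: with each of the 4 libraries left out in turn, 19 of 36 members (52.8%) kept the sign of the log2 fold change in all 4 fits, as did 52.5% of all genes. The median log2 fold change of the members ran from 0.0764 to 0.12 in these fits. Which members reached an unadjusted p under 0.05 in limma also changed with the library left out. A fit with a library left out has 1 sample in a group, which is then assumed to vary like the other group.

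**Figure D1:**
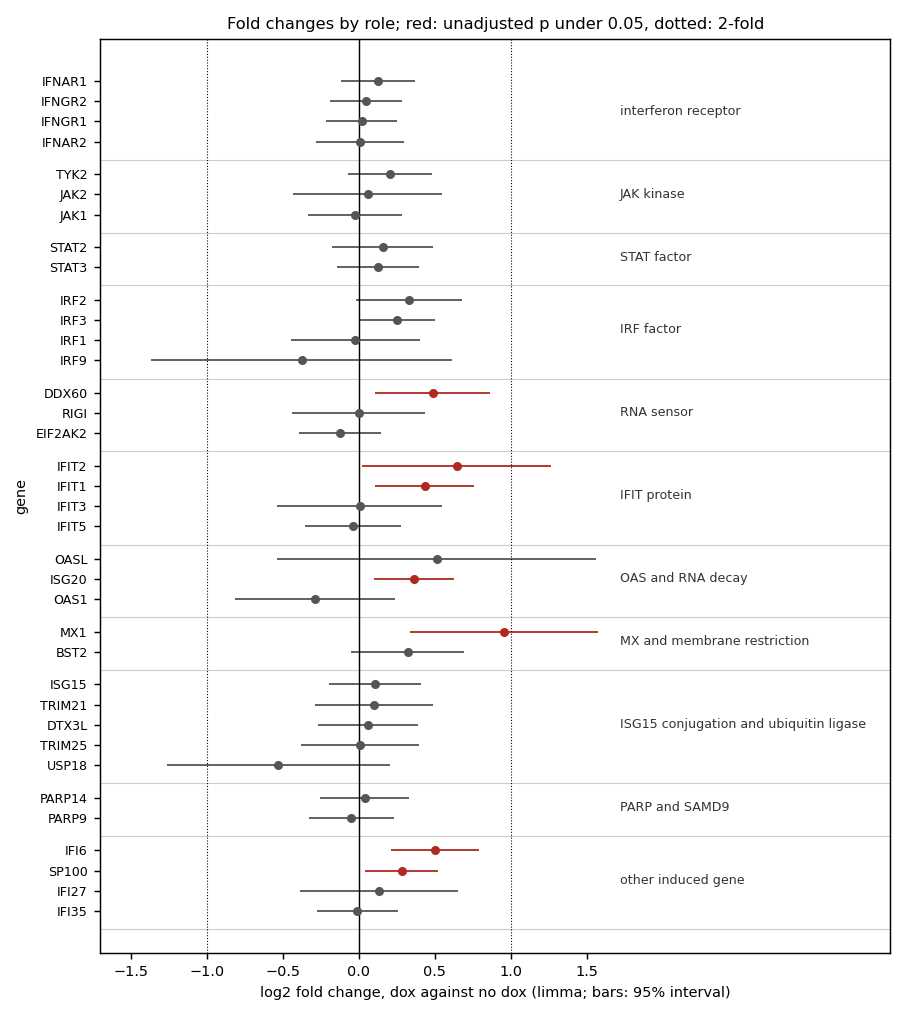
Log2 fold change of the 36 members with a mean of at least 10 reads, dox against no dox, from limma. Points are estimates, bars are 95% intervals, horizontal lines separate the roles, and dotted lines mark a 2-fold change in either direction. The genes in red (DDX60, IFIT2, IFIT1, ISG20, MX1, IFI6 and SP100) had an unadjusted p under 0.05, and the bars of IRF9, IFIT2, OASL, MX1 and USP18 reach past 2-fold.

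The precision of these libraries set a bound on most members. The standard error of the log2 fold change had a median of 0.15 and ran from 0.11 to 0.49. For 31 of 36 members the 95% interval from limma lay wholly inside a 2-fold change in either direction. The 5 whose interval reached further were IRF9, IFIT2, OASL, MX1 and USP18, which were also the 5 with the lowest mean RPKM among the 36.

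The receptor chains were all expressed, those for interferon gamma among the 5 most abundant members, and none passed the test. Mean levels over the 4 libraries were 63.3 RPKM for IFNGR1 and 49.1 RPKM for IFNGR2, the chains of the interferon gamma receptor, and 15.6 RPKM for IFNAR1 and 6.74 RPKM for IFNAR2, those of the type I receptor. IFNAR1 had the smallest p of the receptors and stood at 15.5 and 14.6 RPKM without dox and at 16.2 and 15.9 RPKM with dox. Its log2 fold change was 0.13 ± 0.11 (SE, adjusted p = 0.775, limma). The groups did not overlap, but the step was about the size of its standard error. Log2 fold changes of the other receptors were 0.05 for IFNGR2, 0.02 for IFNGR1 and 0.01 for IFNAR2. That of IFNAR2 turned to -0.02 with TMM scaling and to -0.01 with scaling by library size only.

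The kinases that sit on these receptors lay between -0.02 and 0.21. TYK2, which binds IFNAR1, stood at 5.08 and 5.18 log2 CPM without dox and at 5.36 and 5.30 log2 CPM with dox, so that the groups were apart, at a log2 fold change of 0.21 ± 0.13 (SE, adjusted p = 0.669, limma). JAK1, which serves both receptor types, was better expressed, at 18.3 RPKM on average, and its dox libraries bracketed the no dox libraries at 15.5 and 20.4 RPKM. JAK2, needed for interferon gamma, was present at 0.923 RPKM on average, with a log2 fold change of 0.06.

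STAT2, the STAT that carries the activation domain of ISGF3, had 6.45 and 6.90 RPKM without dox and 6.48 and 8.25 RPKM with dox. The groups overlapped, and the log2 fold change was 0.16 ± 0.15 (SE, adjusted p = 0.802, limma). STAT3, better known as the factor of interleukin-6 signaling, was at 28.6 RPKM on average with a log2 fold change of 0.13.

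Among the IRF factors, IRF3 had the smallest p. IRF3 is the factor that switches on the type I interferon genes once a sensor has bound foreign nucleic acid. Its level was 28.7 and 29.8 RPKM without dox and 33.5 and 34.5 RPKM with dox. The replicates of each group lay close together and the groups did not overlap, with a log2 fold change of 0.25 ± 0.12 (SE, adjusted p = 0.540, limma). IRF2, which competes with IRF1 for the same sites, gave a log2 fold change of 0.33 with 6.54 RPKM on average, and its groups also did not overlap. IRF1, the early interferon gamma target, gave -0.02 at 2.06 RPKM. IRF9, the DNA-binding part of ISGF3, was scarce: it had 21 and 16 reads without dox, against 10 and 12 with dox. IRF9 was lower in both dox libraries, at a log2 fold change of -0.37 ± 0.46 (SE, adjusted p = 0.857, limma), and its interval from -1.36 to 0.61 spans more than a 2-fold change downward. IRF7, the interferon-induced amplifier of type I interferon genes, had 2 reads in no dox replicate 1 and 0 in the other libraries.

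Over the 13 receptor, kinase, STAT and IRF members that were tested, the median log2 fold change was 0.06 and 0 reached an unadjusted p under 0.05 in limma. At the share of all genes with higher values at that level, 4.68%, a count of 0 among so few genes says little. Over the 23 induced genes tested, the median was 0.10, and these held all 7 members at that level.

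**Figure D2:**
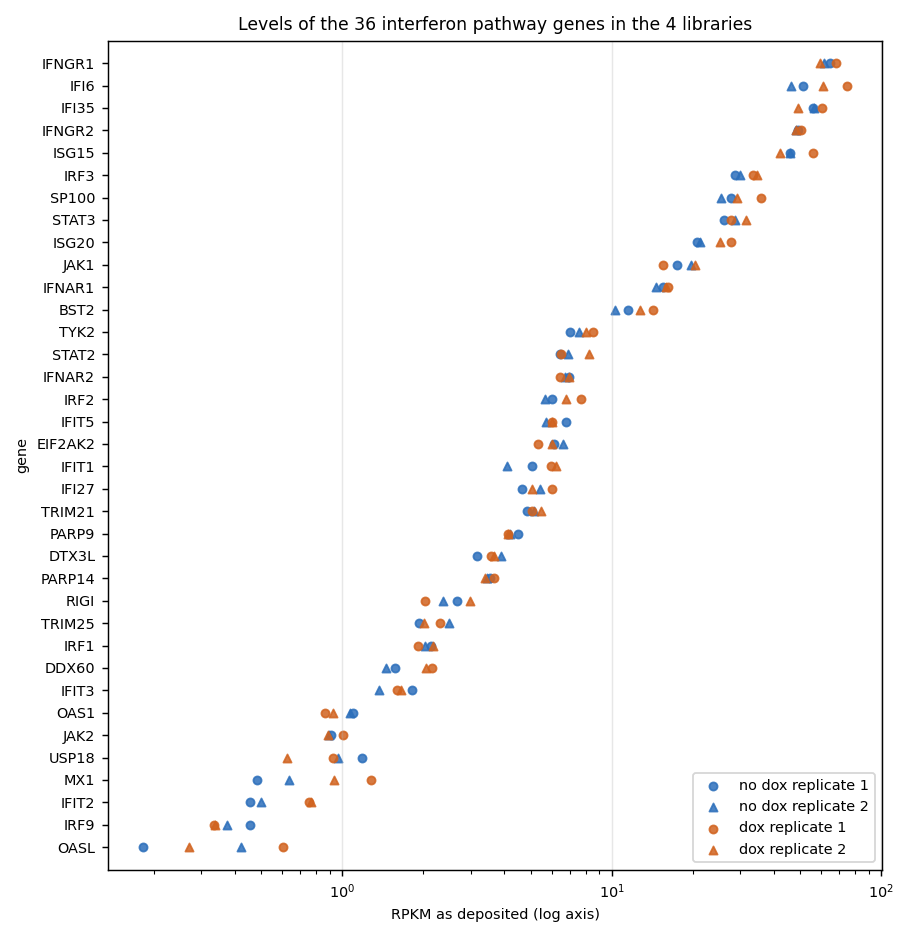
Deposited RPKM of the 36 members in each of the 4 libraries, on a log axis, sorted by mean level. Circles are replicate 1 and triangles replicate 2, blue without dox and orange with dox. Levels run from about 0.37 RPKM for OASL and IRF9 to 63.3 RPKM for IFNGR1, and the blue and orange symbols do not interleave in 17 of the 36 genes.

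The stimulated genes were expressed unevenly in these cells. Of the 36 members that passed the filter, 12 had a mean level of at least 10 RPKM and 7 were under 1 RPKM. The 5 most abundant were IFNGR1, IFI6 at 58.4 RPKM, IFI35 at 55.3 RPKM, IFNGR2 and ISG15 at 47.6 RPKM. The 5 least abundant were OASL at 0.369 RPKM, IRF9 at 0.374 RPKM, IFIT2 at 0.619 RPKM, MX1 at 0.833 RPKM and USP18 at 0.923 RPKM. Genes of the same induced program thus differed widely in level within these cells, with IFI6 and ISG15 near the top and MX1 near the bottom.

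A further 13 members fell below a mean of 10 reads. IFI44, XAF1 and CMPK2 had 0 reads in all 4 libraries. XAF1 is a proapoptotic interferon target, and CMPK2 is a mitochondrial nucleotide kinase that lies beside the antiviral gene RSAD2. A count of 0 still allows up to 3 reads in a library, a limit that covers counting error only. IRF7, OAS2, MX2, SAMD9, SAMD9L and IFI44L had at most 3 reads in any library. UBA7, the activating enzyme for ISG15, had 9 and 1 reads without dox, against 3 and 2 with dox, whereas ISG15 itself was among the most abundant members. Closest to the threshold from below were OAS3, IFIH1 and IFI16, with mean counts of 8.50, 6.25 and 5.75. IFIH1, the sensor MDA5 of long double-stranded RNA, had 1 and 6 reads without dox, against 7 and 11 with dox. IFI16, a DNA sensor, had 11 and 6 reads without dox, against 6 and 0 with dox, and OAS3 had 4 and 19 without dox and 6 and 5 with dox. Just inside the threshold were IRF9, OASL and USP18, with mean counts of 14.8, 22.5 and 39.5. Counts this low do not resolve a difference between the groups.

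IFI6 had the smallest p of all members. It encodes a small membrane protein that protects cells from flavivirus replication and from apoptosis, and it lies at chr1:27666064-27672212 on the minus strand of GRCh38. The gene had 1041 and 876 reads without dox, against 987 and 958 with dox, out of smaller dox libraries. In RPKM it stood at 51.2 and 46.3 without dox and at 74.9 and 61.1 with dox. Both dox libraries were above both no dox libraries, and the spread was wider with dox. The log2 fold change was 0.50 ± 0.13 (SE, adjusted p = 0.251, limma), with a 95% interval from 0.21 to 0.79.

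MX1 showed the highest log2 fold change of the members. Its product is a dynamin-like GTPase that traps viral nucleocapsids, and the gene lies at chr21:41420020-41470071 on the plus strand. Reads were few, at 46 and 56 without dox and 79 and 68 with dox. The levels were 0.485 and 0.633 RPKM without dox and 1.28 and 0.929 RPKM with dox, so that the groups did not overlap. The log2 fold change was 0.96 ± 0.29 (SE, adjusted p = 0.311, limma), with an interval from 0.34 to 1.58. Part of TMPRSS2 is annotated on the opposite strand of MX1, and the sources used here do not say whether counting used strand.

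ISG20 is an exonuclease that degrades viral RNA, at chr15:88635670-88656483 on the plus strand. It had 20.7 and 21.3 RPKM without dox and 27.8 and 25.3 RPKM with dox. Replicates lay close and the groups were apart, at a log2 fold change of 0.36 ± 0.12 (SE, adjusted p = 0.366, limma).

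IFIT1, which holds back translation of viral RNA that lacks cap methylation, lies at chr10:89392546-89406487 on the plus strand. Its levels were 5.06 and 4.10 RPKM without dox and 5.96 and 6.23 RPKM with dox. The no dox libraries were further from each other than the dox libraries, and the groups did not overlap. The log2 fold change was 0.44 ± 0.15 (SE, adjusted p = 0.386, limma). Its neighbours in the IFIT cluster on chromosome 10 did not all share this value. IFIT2 had 44 and 45 reads without dox, against 47 and 57 with dox. Its log2 fold change was 0.64 ± 0.29 (SE, adjusted p = 0.524, limma). IFIT3, which binds IFIT1 and steadies it, gave 0.01, and IFIT5 gave -0.04 at 6.14 RPKM. IFIT1, IFIT2 and IFIT3 overlap LIPA on the opposite strand in the annotation.

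DDX60, a helicase reported to aid RNA sensing by RIG-I, lies at chr4:168216291-168318883 on the minus strand. It had 1.57 and 1.46 RPKM without dox and 2.15 and 2.04 RPKM with dox. The replicates of each group differed by far less than the groups, and the log2 fold change was 0.49 ± 0.18 (SE, adjusted p = 0.404, limma). SP100, a component of PML nuclear bodies that represses incoming viral genomes, lies at chr2:230415942-230545606 on the plus strand. Its levels were 27.8 and 25.4 RPKM without dox and 35.9 and 29.1 RPKM with dox, with a log2 fold change of 0.28 ± 0.11 (SE, adjusted p = 0.452, limma). SP100 was the member of this group with the most reads, 3107 on average.

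**Figure D3:**
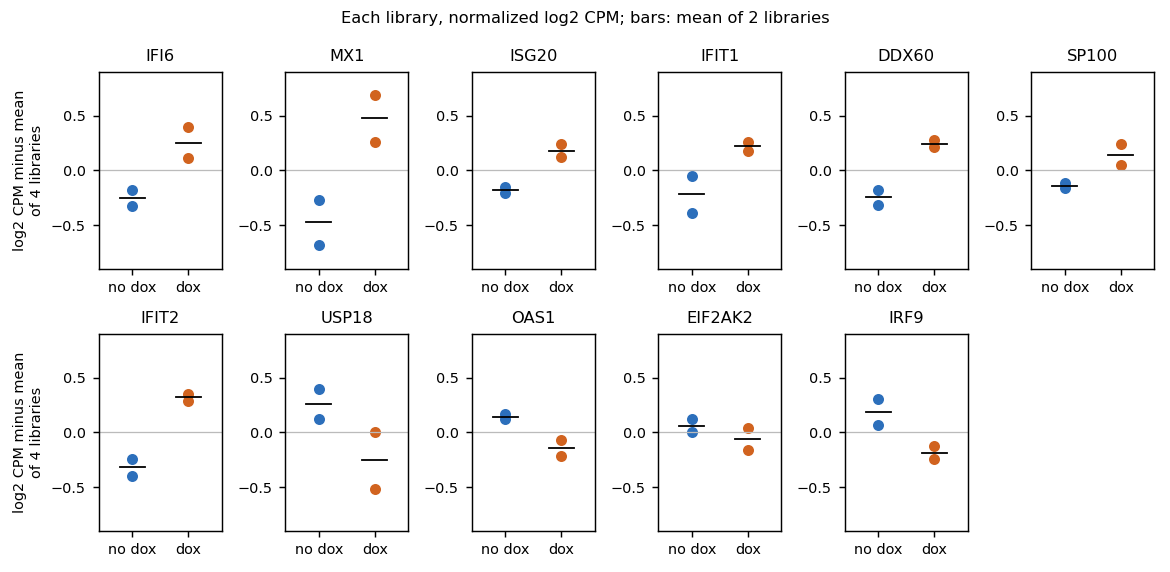
Normalized log2 CPM of 11 members in each library, as the difference from the gene's mean over the 4 libraries, with bars for the mean of the 2 libraries of a group. In the panels from IFI6 to IFIT2 both dox libraries lie above both no dox libraries, and in those of USP18, OAS1 and IRF9 both lie below, while the groups of EIF2AK2 overlap.

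Of the members with lower values under dox, USP18 had the smallest p. USP18 removes ISG15 from proteins and damps signaling at IFNAR2, and it lies at chr22:18150118-18177397 on the plus strand. It had 59 and 45 reads without dox, against 30 and 24 with dox. The levels were 1.18 and 0.966 RPKM without dox and 0.925 and 0.622 RPKM with dox. The groups did not overlap. The log2 fold change was -0.53 ± 0.34 (SE, adjusted p = 0.684, limma), with a 95% interval from -1.26 to 0.20 that includes 0. Near-identical copies of USP18 exist in the genome, so its reads are uncertain.

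OAS1, which makes the oligoadenylates that activate RNase L, lies at chr12:112905856-112933219 on the plus strand. It had 1.10 and 1.07 RPKM without dox and 0.861 and 0.925 RPKM with dox. Its groups were apart by little, with a log2 fold change of -0.29 ± 0.25 (SE, adjusted p = 0.768, limma). EIF2AK2, the kinase PKR that stops translation when it binds double-stranded RNA, lies at chr2:37099210-37157522 on the minus strand. It had 6.11 and 6.58 RPKM without dox and 5.33 and 6.01 RPKM with dox, with a log2 fold change of -0.12 ± 0.13 (SE, adjusted p = 0.821, limma), and its groups overlapped after normalization.

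Members of one family did not always share a direction. In the OAS and RNA decay group, OASL gave 0.51 ± 0.49 (SE) with 0.182 and 0.420 RPKM without dox and 0.603 and 0.270 RPKM with dox, so that its groups overlapped in part, while OAS1 and ISG20 lay on either side of 0. Among the RNA sensors, RIGI, the sensor RIG-I, had 2.66 and 2.37 RPKM without dox and 2.03 and 2.99 RPKM with dox. The dox libraries bracketed the no dox libraries, and the log2 fold change was 0.00045, which TMM scaling turned to -0.0077. BST2, the tetherin that holds budding virions at the membrane, had 11.5 and 10.3 RPKM without dox and 14.3 and 12.7 RPKM with dox. Its groups did not overlap, at a log2 fold change of 0.32 ± 0.17 (SE, adjusted p = 0.605, limma).

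The genes around ISG15 were expressed unevenly, and none of them passed the test. ISG15 itself, the ubiquitin-like modifier, had 45.9 and 46.0 RPKM without dox and 56.0 and 42.3 RPKM with dox. The dox libraries lay on both sides of the no dox libraries, and the log2 fold change was 0.11 ± 0.14 (SE). The ubiquitin ligases TRIM21, DTX3L and TRIM25 gave 0.10, 0.06 and 0.01, and that of TRIM25 turned to -0.02 with TMM scaling. USP18, described above, had the lowest value of the role and of all members, at -0.53. TRIM25 is the ligase that activates RIG-I, and DTX3L works in a complex with PARP9. PARP9 and PARP14, ADP-ribosyltransferases of interferon gamma responses, gave -0.05 and 0.04. DTX3L and PARP9 start next to each other on opposite strands, and each is annotated over the start of the other. Of the remaining induced genes, IFI27 gave 0.14 at 5.29 RPKM and IFI35 gave -0.01 at 55.3 RPKM. An annotated gene lies on the opposite strand of 21 of the 36 members, whose reads are uncertain to that extent.

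The ISRE core was found in induced genes, both expressed and nearly silent, and in none of the signaling genes that had a window. Of 49 members, 39 had a RefSeq window, and IFIT2, IFNAR2, IRF2, IRF3, IRF7, MX2, OAS2, OASL, UBA7 and USP18 had none. This core was found in 20 of the 39 (51.3%), beside 4.38% of 27305 genes and 3.57% of all 35116 windows. It was in 20 of 29 induced genes (69.0%) and in 0 of 10 receptor, kinase, STAT and IRF genes. All 10 of these signaling genes passed the filter, so shares above and below it compare unlike sets of genes. Among members that passed the filter the core was in 15 of 30 (50.0%). Among those below the filter it was in 5 of 9 (55.6%): IFI44, IFI44L, IFIH1, OAS3 and SAMD9. IFI44L thus holds 2 copies of the motif, printed above, with 1 read over the 4 libraries. IFI6 holds 3 copies and had 965.5 reads on average.

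Values were also set beside the motif, as a description with no test. The median log2 fold change was 0.11 over the 15 members with the motif, of which 5 had an unadjusted p under 0.05 in limma, and 0.02 over the 15 without it, of which SP100 did. The 15 without it include all 10 signaling genes that had a window, so this split largely repeats that of induced against signaling genes. IFIT2, the other member at that level, had no window. The range over the 15 with the motif, from -0.12 for EIF2AK2 to 0.96 for MX1, took in values on both sides of 0, so holding the motif did not fix a gene's value. The second motif, TTCNNNGAA for the GAS, reads the same on both strands. It was in 9 of 39 members (23.1%), beside 9.38% of genes and 7.66% of windows: BST2, DDX60, IFI27, IFI35, IRF1, IRF9, MX1, OAS1 and PARP14. By the filter, it was in 9 of 30 members that passed and in 0 of 9 below. Here the median log2 fold change was 0.04 over the 9 members with the motif and 0.06 over the 21 tested members without it, with 2 and 4 members at an unadjusted p under 0.05 in limma. In BST2, IFI27 and MX1 a GAS match overlaps an ISRE match. A match of letters is a description and not a shown binding site.

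**Figure D4:**
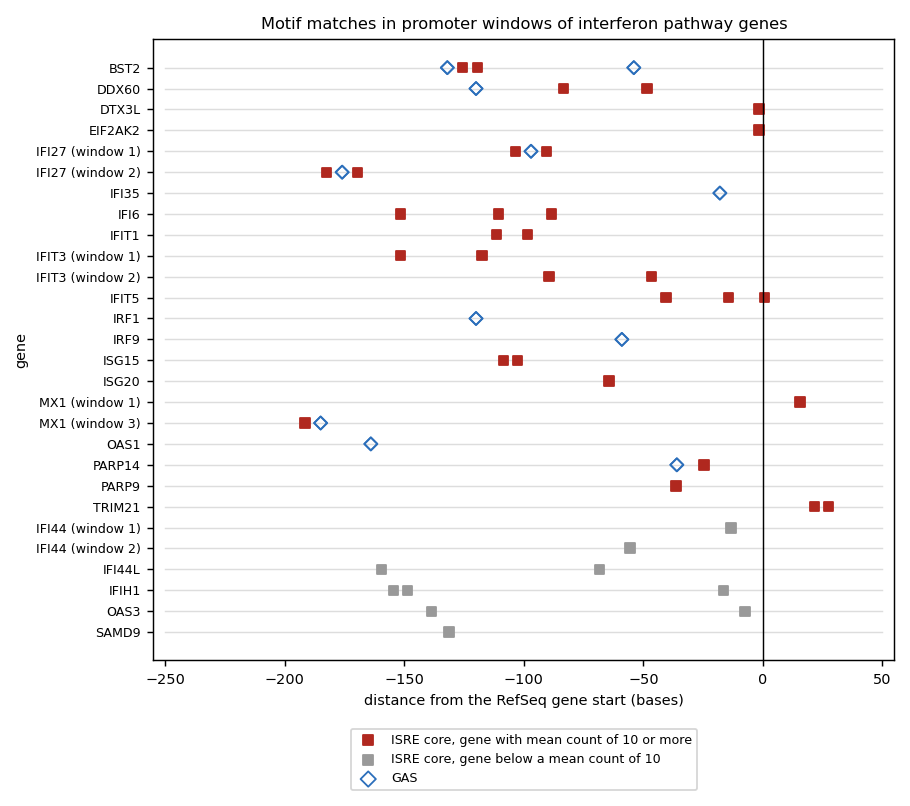
Centres of motif matches in the RefSeq promoter windows of members that hold one, by distance in bases from the gene's start. Filled squares are the ISRE core, red for genes averaging 10 reads or more and grey for genes below it, and open diamonds are the GAS TTCNNNGAA. Genes with matches in several windows have a line for each. Most squares lie before the start, in expressed and nearly silent genes alike.

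The ligands of the pathway were all but absent. Of 21 interferon genes listed (type I, interferon gamma and interferon lambda), 20 had 0 reads in all 4 libraries, and IFNL1 had 1 read, in no dox replicate 2. A count of 0 allows up to 3 reads in each library. The tables hold no measure of secreted protein.

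A wider list of 111 other interferon genes was read from the same fit, with ligands, regulators, sensors and further induced genes. Of these, 73 were tested and 0 were called in limma, beside 0.0371% of all genes. The log2 fold change was above 0 for 41 of 73, beside 49.9% of all genes, with a median of 0.04. An unadjusted p under 0.05 in limma was reached by 8 with higher values under dox, beside 4.68% of all genes, and by 0 with lower values, beside 4.59%. CASP4, the inflammatory caspase that binds bacterial lipopolysaccharide, gave 0.48 ± 0.13 (SE, adjusted p = 0.278, limma). TRANK1 gave 1.24 ± 0.37 (SE, adjusted p = 0.309, limma), but rested on 86 and 27 reads without dox against 76 and 102 with dox, so that 1 no dox library was low. Also at that level, and named after their values were seen, were DHX58, IL10RB, SOCS3, UBE2L6 and SP110. DHX58 gave 1.41 ± 0.52 (SE, adjusted p = 0.408, limma) on few reads, 16 and 5 without dox against 21 and 20 with dox. Here too 1 no dox library was low. UBE2L6, the conjugating enzyme for ISG15, gave 0.29 ± 0.11 (SE, adjusted p = 0.444, limma). SOCS3 is a brake on JAK signaling, and IL10RB is a chain of the interferon lambda receptor.

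In the other direction, the smallest p-values of that list were those of NT5C3A at -0.31, PLSCR1 at -0.23 and TRIM26 at -0.30 (log2 fold change), none of them at an unadjusted p under 0.05 in limma. PLSCR1, a phospholipid scramblase that limits viral entry, had 2209 and 1777 reads without dox, against 1123 and 1299 with dox, from the smaller dox libraries. TBK1, the kinase that activates IRF3, is known to be modified by Mind Bomb ligases in RNA sensing, and it was named after its values were seen. It had 1435 and 1362 reads without dox, against 909 and 1093 with dox. Its log2 fold change was -0.0019 ± 0.12 (SE, limma), so its mRNA differed by less than its standard error, and the tables hold no measure of its protein or activity.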

How the data were processed

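RNA-seq of MIB1-iKO NCIH838 cells was analysed from the deposited tables, with groups and replicate numbers taken from the sample labels. Per the methods of the study, the authors removed ribosomal reads, aligned the rest to GRCh38 with GSNAP, allowing 2 mismatches per 50 bases, and counted reads over exons with HTSeqGenie. The deposited counts are whole numbers per gene and were not normalized. The deposited RPKM values are scaled for gene length and depth, with a further scaling per sample by the authors. The methods name a RefSeq annotation while the files carry Ensembl identifiers, and neither the library kit of these samples nor the use of strand in counting is given in the sources used here. Symbols and positions are from GENCODE release 44 (57532 of 58302 identifiers had a symbol).

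The test was the one the study states, after a gene filter that its methods do not name. filterByExpr kept 16181 genes, counts were scaled by library total and quantile-normalized, and the groups were compared with voom weights in limma 3.58.1 (lmFit, eBayes; R 4.3.3) with no covariate. Adjustment was by Benjamini-Hochberg over these genes, and calls required an adjusted p no higher than 0.05 and a log2 fold change of at least 1 in size. Standard errors are moderated. With 2 libraries against 2, the smallest two-sided p of an exact permutation test is 0.333, so none was used. No library repeated another: chi-square over genes, divided by its degrees of freedom, was at least 8.18 for each pair. Limits from counts of 0 cover counting error only, since PCR copies are not independent molecules. Some of the fits were tried on simulated data, with changes larger than that of any member, so this does not cover changes of the size reported here.

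Full values were given for the 6 members with the smallest unadjusted p among those higher with dox and the 4 among those lower, for the smallest p in each signaling role, and for MIB1. Of the wider list, the 3 smallest p in each direction and ligands with a read were named, apart from items that are not reported here. Levels were given for the 5 highest and 5 lowest mean RPKM. Sequences were printed for the first 6 members where they hold the ISRE core before the start. The members and lists were chosen with earlier results of these data known, and the wider list was typed from memory. Alternatives were edgeR 4.0.16, DESeq2 1.42.0, TMM or library size scaling, no filter beyond 1 read or a mean count of 10 or 50, limma on log2(RPKM + 0.1) and log2(RPKM + 1), other thresholds, the replicate number as a term, and leaving out each library. Counts at an unadjusted p, and the alternatives of the count at an adjusted p without a fold threshold, were added after the data were seen.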

Additional observations from a re-analysis of the deposited data

How the results depend on the processing

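Neither a called member nor an adjusted p of at most 0.05 among the members appeared with edgeR, DESeq2, TMM or library size scaling. The same held with a mean count filter of 10 or 50, and each of these fits called 5 or 6 of all genes. With no count filter, and on both RPKM scales, 0 of all genes reached that adjusted p. The lack of members there therefore says nothing about them. Fits that omit a library were not used for this count, because one of the groups has no spread of its own. The replicate numbers of the labels could pair the samples. Same-numbered libraries were somewhat alike by the measures below, which does not settle whether they are pairs. Deviations of same-numbered libraries from their group means correlated at r = 0.134, a single value, since with 2 libraries a group both pairs give the same one. By chi-square over genes divided by its degrees of freedom, same-numbered libraries were the closest (8.26 and 8.18), ahead of those within a group (9.34 and 13.1) and of differently numbered libraries across groups (15.8 and 15.9). Nothing in the labels ties a number to a shared culture or day, so the numbers were not taken as pairs. With the replicate block, 7 members had an adjusted p of at most 0.05 (IFI6, SP100, ISG20, IFIT1, MX1, IRF3 and DDX60, where 7.13% of all genes did), 11 members were higher at an unadjusted p under 0.05 in limma (10.1% of all genes were), 0 members were called, and 1 other pathway gene was called, TRANK1.

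The count of members higher at an unadjusted p under 0.05 ran from 0 to 5 with one library left out, and the cause was not tested. Their median log2 fold change was 0.093 with library size scaling, 0.0683 on log2(RPKM + 0.1) and 0.0485 on log2(RPKM + 1), and 0.0764 to 0.12 with one library left out. The pseudocount draws values of low genes toward 0. For MIB1 the log2 fold change was -2.58 with no count filter (adjusted p = 0.613), -2.33 on log2(RPKM + 0.1) (adjusted p = 0.108) and -1.34 on log2(RPKM + 1) (adjusted p = 0.0962), and it ran from -2.998 to -2.16 with one library left out (adjusted p from 0.721 to 0.896, limma with fewer samples), so that it was not called in any of these fits.

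Of 44 genes followed, 3 changed sign under an alternative that kept all libraries, all of them close to 0. IFNAR2 gave -0.0246 (TMM), -0.0136 (library size), -0.0247 (edgeR), -0.0186 (DESeq2), -0.0323 (RPKM + 0.1) and -0.0285 (RPKM + 1). RIGI gave -0.0077 (TMM), -0.0037 (library size), -0.0239 (RPKM + 0.1) and -0.0134 (RPKM + 1). TRIM25 gave -0.0151 (TMM), -0.0288 (edgeR), -0.0222 (DESeq2), -0.0223 (RPKM + 0.1), -0.0176 (RPKM + 1) and -0.00049 (replicate block). With one library left out, 18 genes changed sign: IFNAR2 (-0.053 to 0.066), IFNGR1 (-0.0289 to 0.0755), JAK1 (-0.252 to 0.195), JAK2 (-0.0085 to 0.131), STAT2 (-0.0236 to 0.339), STAT3 (-0.0126 to 0.266), IRF1 (-0.126 to 0.0779), RIGI (-0.285 to 0.27), IFIT3 (-0.183 to 0.22), IFIT5 (-0.164 to 0.101), OASL (-0.0877 to 1.06), ISG15 (-0.0805 to 0.304), TRIM25 (-0.165 to 0.169), DTX3L (-0.0883 to 0.199), PARP9 (-0.102 to 0.0082), PARP14 (-0.0148 to 0.0988), IFI35 (-0.133 to 0.118) and TBK1 (-0.0264 to 0.0235).

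With 2 libraries in a group, members under a mean of 10 reads could not be compared. For a member that was tested, values inside its 95% interval could not be told apart with 2 libraries in a group.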
